A study of Mus musculus with 12 samples.

Results

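The 10 genes described here encode receptors for colony-stimulating factors and interleukins on myeloid cells: Csf3r, Csf2ra, Csf2rb, Csf2rb2, Il3ra, Il4ra, Il6ra, Il6st, Il13ra1 and Il17ra. They were listed by name as growth factor and interleukin receptors, with earlier results of these data known, and no measured value enters the rule. All 10 were among the 38887 genes of the count table and among the 15494 genes tested. Polyadenylated RNA of spleen cells carrying Ly6G, a surface protein of mouse neutrophils, was sequenced at 4 ages of the mice, namely 2 days, 7 days, 14 days and 6 weeks, from 3 libraries at each, making 12. The labels of every age call the cells PMN-MDSC, the usual abbreviation for polymorphonuclear myeloid-derived suppressor cells, which are neutrophils able to restrain T cells. The series title names a suppressive activity of neutrophils that newborns hold for a time. No group is labelled with a treatment or an altered gene, and strain, genotype, sex, gating and the number of mice per library are not given in the sources used here. The p-values therefore measure the spread between libraries, which may be technical.

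Each library held 34495767 to 38795913 counts, and a receptor gene had between 252 and 244462 counts in a library. Ly6g was detected in all 12 libraries, at 74.9 to 112 CPM (the count of a gene scaled to a common, normalised library size) at 2 days, 94.5 to 116 at 7 days, 156 to 190 at 14 days and 168 to 185 at 6 weeks. The neutrophil alarmin gene S100a8 was at 8697 CPM or more in every library. The second library of 2 days and the first of 14 days stood apart from the others of their age. The Spearman correlations of the former with the others of its age were 0.971 and 0.980, against 0.992 between those others, and the first library of 14 days reached 0.986 against 0.994. The heat-shock and handling genes summed to 21650 to 26120 CPM at 7 days, against at most 12180 at any other age. That sum was carried by the inducible chaperone genes Hspa1a, at 10670 to 13370 CPM at 7 days and at most 109 elsewhere, and Hspa1b, at 8045 to 9846 CPM and at most 129 elsewhere. Of the 10 genes of that list 5 were higher and 4 lower at 7 than at 2 days, beside 22.9% and 25.8% of all genes. The immediate early genes Fosb and Jun had their lowest means at 6 weeks (102 and 438 CPM, against 183 and 456 at 7 days). Among the 3 young ages both had their lowest mean at 7 days. Fosb was at 1359, 183 and 1412 CPM and Jun at 837, 456 and 724 CPM at 2, 7 and 14 days. Atf3 had its lowest mean at 2 days (22.3 CPM, against 26.7 at 7 days). The immediate early genes Fos and Egr1 had their lowest means at 7 days. Fos, an AP-1 subunit, was at 3951 ± 1437, 599 ± 55, 2974 ± 307 and 1929 ± 369 CPM (SD, n = 3) at 2, 7 and 14 days and 6 weeks, and Egr1, another rapidly induced transcription factor gene, at 2875 ± 407, 390 ± 39, 2020 ± 319 and 937 ± 324 CPM. The 9 erythroid markers were all higher at 7 days than at 6 weeks, with none at 0 at any age, and summed to 2234 to 3925 CPM at 7 days, 296 to 566 at 2 days, 48.9 to 221 at 14 days and 113 to 381 at 6 weeks. Of the 16 neutrophil markers 6 were higher and 3 lower at 7 days than at 6 weeks, where 24.5% of all genes were higher and 26.6% lower. Means at 7 days and 6 weeks were 141 and 22.6 CPM for Mpo, 25.4 and 7.17 for Elane and 491 and 234 for Cebpe. For Cxcr2 they were 443 and 1393 CPM, for Mmp9 3322 and 5900 and for Ly6g 103 and 178. Of the 8 granulocyte progenitor regulators 3 were higher and 1 lower at 7 days than at 6 weeks. Each comparison with 7 days therefore sets libraries high in heat-shock and erythroid transcripts and low in Fos and Egr1 against libraries with opposite levels. Against 2 and 14 days the 7-day libraries were also low in Fosb and Jun. The part of these transcripts, and of the neutrophil and progenitor genes, in the results was not tested. Y-linked genes had 1816 to 4010 counts per library over the libraries of 2 and 7 days and 0 to 1 at 14 days and 6 weeks, so sex and age cannot be told apart across that boundary. In bulk RNA, fewer cells of a type and less RNA per cell cannot be told apart.

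Receptors of this kind sit at the cell surface without kinase activity of their own, and most bind a ligand with a private chain and pass the signal through a shared chain to Janus kinases and STAT transcription factors. Granulocyte colony-stimulating factor acts through Csf3r and drives neutrophil production and release, while the granulocyte-macrophage factor, interleukin 3 and interleukin 5 share the beta common chain. The interleukin 6 family shares gp130, interleukins 4 and 13 share the interleukin 4 receptor alpha chain, and interleukin 17 uses a separate receptor family that signals through the adaptor Act1 instead of Janus kinases.

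The 7-day libraries held the least of nearly all of these receptor transcripts. Mean CPM was lowest at 7 days for 9 of the 10 genes, and the exception was Il6st, lowest at 2 days. The mean was highest at 6 weeks for 6 genes, at 2 days for Il3ra, Il4ra and Il17ra, and at 14 days for Csf2ra. All 10 genes were lower at 7 days than at 6 weeks by edgeR's quasi-likelihood test with Benjamini-Hochberg adjustment over all tested genes, and a gene is named as called where its adjusted p was below 0.05. The falls ranged from 1.62-fold for Il3ra to 11.2-fold for Il13ra1. For all 10 genes the 3 libraries of 7 days lay below the 3 of 6 weeks without overlap, where 35.6% of all 15494 tested genes lay wholly lower and 51.0% were called in either direction. The 10 genes together summed to 2029 ± 277 CPM at 7 days (SD, n = 3), against 5319 ± 1726 at 2 days, 6218 ± 1336 at 14 days and 9143 ± 1586 at 6 weeks. Csf3r carried much of this sum. Without it the other 9 genes came to 3266 ± 514 CPM at 2 days, 1332 ± 163 at 7 days, 2463 ± 331 at 14 days and 3169 ± 390 at 6 weeks.

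**Figure D1:**
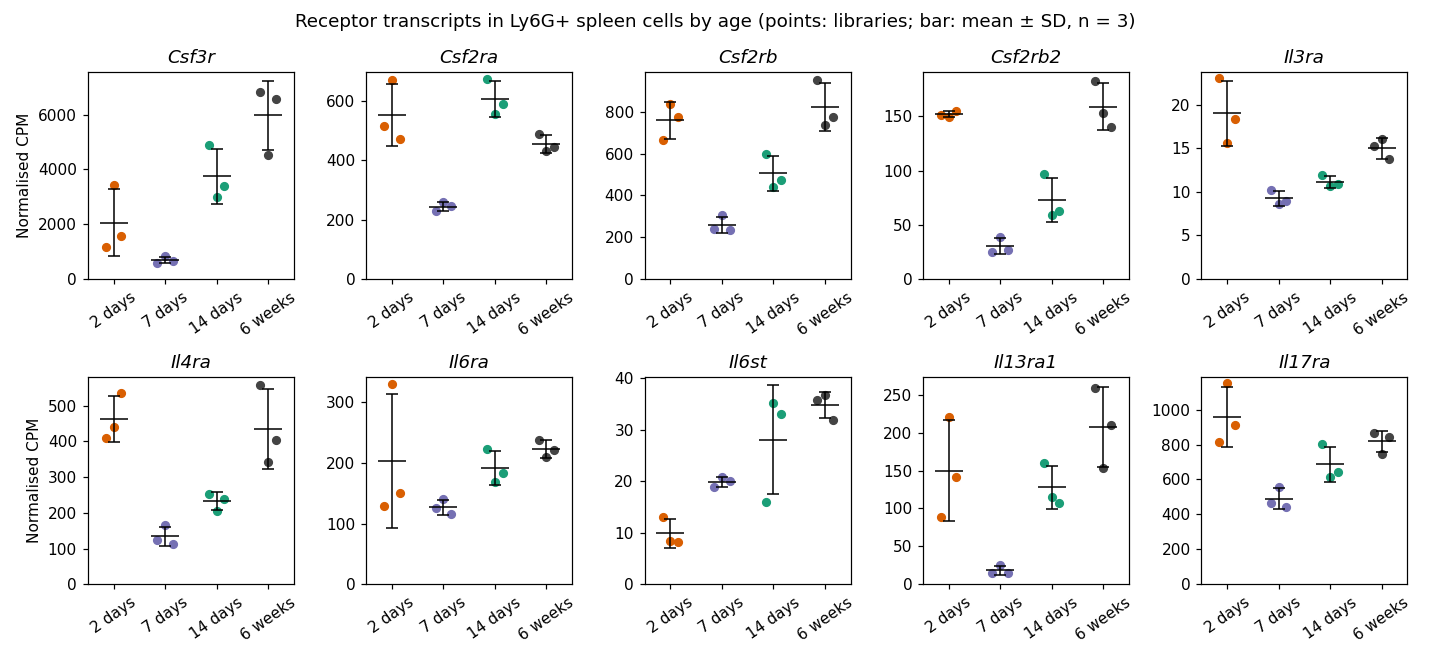
Normalised CPM of the 10 receptor genes at each age, with 1 point per library and bars for mean ± SD of 3 libraries on linear axes that start at 0. The 7-day points are the lowest group for every gene except Il6st, whose lowest points are at 2 days, and 1 of the 2-day points of Csf3r, Il6ra and Il13ra1 lies well above the others.

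Csf3r, the receptor of granulocyte colony-stimulating factor (ENSMUSG00000028859, chr4:126024550-126044440 on the plus strand of GRCm38), had the highest level of the 10 genes and the second largest fall at 7 days. Its levels at 2 days were 1152, 3440 and 1568 CPM in libraries 1, 2 and 3, the order used throughout. At 7 days they were 597, 828 and 665 CPM, at 14 days 4892, 2985 and 3388 CPM, and at 6 weeks 6812, 4537 and 6572 CPM. The 7-day libraries were below all others, and all 2-day libraries were below all 6-week libraries, with the second 2-day library far above its partners and level with 14 days. Against 6 weeks the log2 fold change was -3.10 at 7 days (SE 0.38, adjusted p 3.99e-05, 8.57-fold lower) and -1.54 at 2 days (SE 0.36, adjusted p 0.00444). At 14 days it was -0.67 (SE 0.35, adjusted p 0.207), which did not pass, although it did without the second 2-day library (-0.66, adjusted p 0.0413). From 7 to 14 days Csf3r rose 5.39-fold (log2 2.43, SE 0.37, adjusted p 0.000256). The change from 2 to 7 days was -1.56 (SE 0.36, adjusted p 0.00337), and without the second 2-day library it was -0.94 (adjusted p 0.00669). Without that library the fall at 2 days against 6 weeks was -2.13 (adjusted p 5.92e-05), and the difference of 14 from 2 days went from 0.87 (adjusted p 0.0898) to 1.47 (adjusted p 0.00112). That difference was also called with DESeq2 (adjusted p 0.0408).

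Csf2ra encodes the private alpha chain that binds granulocyte-macrophage colony-stimulating factor (ENSMUSG00000059326, chr19:61223957-61228429, minus strand). It was at 515, 669 and 472 CPM in the 2-day libraries, 228, 259 and 246 CPM at 7 days, 675, 557 and 588 CPM at 14 days and 487, 430 and 446 CPM at 6 weeks. The 7-day libraries lay below all others with little spread, and those of 14 days lay above those of 6 weeks without overlap. Csf2ra fell 2.26-fold from 2 to 7 days (log2 -1.18, SE 0.14, adjusted p 4.56e-05) and rose 2.48-fold from 7 to 14 days (log2 1.31, SE 0.14, adjusted p 2.98e-05). At 7 days it was 1.86-fold lower than at 6 weeks (adjusted p 0.000285). The difference of 14 days from 6 weeks, 0.42 (SE 0.14), had an adjusted p of 0.0595. It was called without any 1 of the 2-day libraries (adjusted p 0.00733 to 0.0425), with DESeq2 (0.0210) and with library totals alone (0.0028).

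Csf2rb and Csf2rb2 lie next to each other on chromosome 15, at chr15:78325752-78353847 on the plus strand (ENSMUSG00000071713) and chr15:78282507-78305721 on the minus strand (ENSMUSG00000071714). Csf2rb encodes the beta chain common to the receptors of granulocyte-macrophage colony-stimulating factor, interleukin 3 and interleukin 5, and Csf2rb2 a mouse paralog that serves interleukin 3. How a read was assigned between them bears on every value below, so the stretch where their coding sequences differ most is shown. The coding sequences of the GENCODE M21 transcripts are 2688 and 2634 bases long and were identical at 2504 of 2626 aligned positions, or 95.4%. The longest identical run was 242 bases, and of stretches of 100 bases 6.96% of those in the Csf2rb transcript also occurred in that of Csf2rb2. The 90 bases below, coding positions 308 to 397 of Csf2rb and 311 to 400 of Csf2rb2 counted from the start codon, hold 16 mismatches, marked by capitals.
Csf2rb: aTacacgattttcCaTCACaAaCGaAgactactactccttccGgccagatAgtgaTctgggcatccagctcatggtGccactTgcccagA
Csf2rb2: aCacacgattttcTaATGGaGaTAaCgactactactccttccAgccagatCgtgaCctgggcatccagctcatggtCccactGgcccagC
Outside such stretches short reads cannot always be told apart, and how the deposited counts split them is not stated.

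Csf2rb was at 664, 837 and 774 CPM in the 2-day libraries, 238, 305 and 234 CPM at 7 days, 598, 442 and 475 CPM at 14 days and 954, 738 and 777 CPM at 6 weeks. The libraries of 2 days and 6 weeks overlapped, those of 14 days lay below both, and those of 7 days lay lowest. It was 3.18-fold lower at 7 days than at 6 weeks (log2 -1.67, SE 0.17, adjusted p 1.10e-05) and 1.63-fold lower at 14 days (adjusted p 0.0115). Csf2rb2 was at 151, 150 and 155 CPM in the 2-day libraries, 25.1, 38.6 and 27.0 CPM at 7 days, 96.7, 59.5 and 62.5 CPM at 14 days and 183, 154 and 140 CPM at 6 weeks. The order of ages was that of Csf2rb, with all 7-day libraries below all 14-day libraries and these below those of 2 days and 6 weeks. Csf2rb2 was 5.26-fold lower at 7 days than at 6 weeks (log2 -2.40, SE 0.21, adjusted p 3.85e-06) and 2.18-fold lower at 14 days (adjusted p 0.00248). Csf2rb2 fell 5.03-fold from 2 to 7 days (adjusted p 4.93e-06). From 7 to 14 days it rose 2.41-fold (adjusted p 0.000377), and Csf2rb rose 1.95-fold (adjusted p 0.000635). The counts of the pair were also summed. The sum does not depend on how counted reads were divided but would lack any shared reads left uncounted. Its log2 change was -1.76 at 7 days against 6 weeks (adjusted p 8.45e-06), -0.77 at 14 days (adjusted p 0.00809) and -0.11 at 2 days (adjusted p 0.633). For Csf2rb the lower level at 14 days than at 6 weeks lost its call without the first 6-week library (-0.59, adjusted p 0.0567).

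Il3ra, the private alpha chain of the interleukin 3 receptor (ENSMUSG00000068758, chr14:14346275-14356011, plus strand), was among the least abundant. It was at 23.0, 15.6 and 18.3 CPM in the 2-day libraries, 10.2, 8.60 and 8.90 CPM at 7 days, 11.96, 10.7 and 10.8 CPM at 14 days and 15.2, 16.1 and 13.7 CPM at 6 weeks. The 2-day and 6-week libraries overlapped and lay above those of 14 days, which lay above those of 7 days. Il3ra was 2.05-fold lower at 7 than at 2 days (log2 -1.04, SE 0.15, adjusted p 0.000149) and 1.70-fold lower at 14 than at 2 days (adjusted p 0.00251). It was 1.62-fold lower at 7 days than at 6 weeks (adjusted p 0.00203), a call lost with library totals alone (-0.52, adjusted p 0.0531). The step from 7 to 14 days, 0.27 on the log2 scale, had an adjusted p of 0.157 although no library overlapped. Mast cells and basophils, known to carry this receptor, left transcripts in these libraries. Of their 11 marker genes 10 were higher at 2 days than at 6 weeks and none lower, where 20.7% of all genes were higher. Those 11 genes summed to 3964 to 6543 CPM at 2 days, 672 to 880 at 7 days, 1038 to 1105 at 14 days and 1421 to 1639 at 6 weeks, with Hdc the main contributor at the later 3 ages. Hdc had means of 599 CPM at 7 days and 1475 at 6 weeks. Most markers went against the sums, with 9 of the 11 higher and 1 lower at 7 days than at 6 weeks. The mast cell tryptase gene Tpsab1 had no counts at 14 days or 6 weeks, where 3 counts over an age is the limit that 0 allows. Their part in the Il3ra and Csf2rb2 levels was not tested.

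Il4ra encodes the alpha chain shared by the receptors of interleukins 4 and 13 (ENSMUSG00000030748, chr7:125552120-125579474, plus strand). It was at 411, 442 and 536 CPM in the 2-day libraries, 125, 165 and 112 CPM at 7 days, 254, 205 and 239 CPM at 14 days and 558, 342 and 405 CPM at 6 weeks. Those of 2 days and 6 weeks overlapped, those of 14 days lay below both, and those of 7 days lay below all. Il4ra was 3.25-fold lower at 7 days than at 6 weeks (log2 -1.70, SE 0.20, adjusted p 3.28e-05) and 1.87-fold lower at 14 days (adjusted p 0.00769). From 7 to 14 days it rose 1.73-fold (adjusted p 0.00607). At 14 days it was still 1.99-fold below 2 days (SE 0.20 on the log2 scale, adjusted p 0.00293).

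Il13ra1, which pairs with Il4ra to bind interleukin 13 (ENSMUSG00000017057, chrX:36112110-36171259, plus strand), changed most of all 10 genes. It was at 88.3, 220 and 142 CPM in the 2-day libraries, 15.4, 25.3 and 14.6 CPM at 7 days, 160, 115 and 108 CPM at 14 days and 259, 153 and 210 CPM at 6 weeks. The 7-day libraries lay far below the rest, while those of the other 3 ages overlapped. Il13ra1 was 11.2-fold lower at 7 days than at 6 weeks (log2 -3.49, SE 0.35, adjusted p 1.02e-05) and 8.13-fold lower than at 2 days (log2 -3.02, SE 0.34, adjusted p 2.64e-05). From 7 to 14 days it rose 6.92-fold (log2 2.79, SE 0.34, adjusted p 5.91e-05). No pair among 2 days, 14 days and 6 weeks was called, but without the second 2-day library Il13ra1 was lower at 2 days than at 6 weeks (-0.85, adjusted p 0.0311). The gene is on the X chromosome, and Y-linked genes had 3051 to 3299 counts per library at 2 days, 1816 to 4010 at 7 days and 0 to 1 at the later ages. Xist, expressed from the inactive X of females, was at 159 to 207 CPM at 2 days, 187 to 441 at 7 days, 322 to 508 at 14 days and 229 to 303 at 6 weeks. Monocytes and macrophages also express Il13ra1, and their 13 markers summed to 538 to 794 CPM at 2 days, 1948 to 1989 at 7 days, 918 to 1376 at 14 days and 3877 to 4150 at 6 weeks. None of the 13 was at 0 at any age, and 10 were higher at 7 than at 2 days with none lower, where 22.9% of all genes were higher. The part of sex-linked and monocyte transcripts in the Il13ra1 levels was not tested.

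Il6ra encodes the interleukin 6 binding chain (ENSMUSG00000027947, chr3:89864059-89913196, minus strand) and was the gene whose level differed least surely between ages. It was at 128, 330 and 151 CPM in the 2-day libraries, 126, 140 and 116 CPM at 7 days, 222, 169 and 183 CPM at 14 days and 238, 209 and 222 CPM at 6 weeks. The 7-day libraries lay below those of 14 days and 6 weeks but overlapped with those of 2 days, and the second 2-day library was the highest of all 12. Il6ra was 1.76-fold lower at 7 days than at 6 weeks (log2 -0.81, SE 0.28, adjusted p 0.0269), and it was the only one of the 10 genes not called in the joint test of any age difference (adjusted p 0.0841). That fall lost its call without the first or the third library of 7 days or of 6 weeks, with adjusted p from 0.0597 to 0.0899. Without the second 2-day library Il6ra was called lower at 2 days than at 6 weeks (-0.67, adjusted p 0.00148) and higher at 14 than at 7 days (0.57, adjusted p 0.00168). Without the first or the third 2-day library it was called lower at 7 than at 2 days (-0.85, adjusted p 0.0115, and -0.78, adjusted p 0.0468), while without the second the difference was -0.11 (adjusted p 0.491).

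Il6st encodes gp130, the signal-transducing chain shared by the interleukin 6 family (ENSMUSG00000021756, chr13:112464070-112510086, plus strand), and it took a course of its own. It was at 13.1, 8.30 and 8.27 CPM in the 2-day libraries, 18.9, 20.8 and 19.9 CPM at 7 days, 15.9, 35.2 and 32.9 CPM at 14 days and 35.7, 36.6 and 31.9 CPM at 6 weeks. The 2-day libraries were the lowest, those of 7 days lay between 2 days and 6 weeks, and the first 14-day library lay far below its partners and under the 7-day libraries. Il6st was 3.5-fold lower at 2 days than at 6 weeks (log2 -1.81, SE 0.26, adjusted p 0.000196) and 1.75-fold lower at 7 days (log2 -0.81, SE 0.25, adjusted p 0.0190). It rose 2.00-fold from 2 to 7 days (log2 1.00, SE 0.26, adjusted p 0.00712), the only one of the 10 that did. The call against 6 weeks at 7 days was lost with library totals alone (-0.63, adjusted p 0.113) and without the first or the third 7-day or the second 6-week library, with adjusted p from 0.0520 to 0.0736. Without the first 14-day library the step from 7 to 14 days was called (0.78, adjusted p 0.00549).
Lymphocytes express Il6st, and in that first 14-day library the 7 B cell markers summed to 147 CPM against 345 and 394 in its partners, and the 10 T and NK cell markers to 39.1 CPM against 80.7 and 78.4. Lymphocyte markers were not alone in varying at 14 days. Across those libraries the macrophage markers Vcam1 and C1qa ran from 61.5 to 237 and from 26.2 to 91.1 CPM. Csf1r and Cd68 varied little, from 450 to 481 and from 89.4 to 97.1 CPM. At 2 days the T and NK markers summed to 52.4 to 59.5 CPM, at 7 days to 87.5 to 112 and at 6 weeks to 97.2 to 115. The B cell markers summed to 256 to 341 CPM at 2 days, 536 to 605 at 7 days and 388 to 497 at 6 weeks. None of these markers was at 0 at any age. Their part in the Il6st levels was not tested.

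Il17ra encodes the chain shared by receptors of the interleukin 17 family (ENSMUSG00000002897, chr6:120463247-120487559, plus strand). It was at 812, 1150 and 915 CPM in the 2-day libraries, 467, 558 and 445 CPM at 7 days, 803, 615 and 645 CPM at 14 days and 864, 748 and 842 CPM at 6 weeks. The 7-day libraries lay below all others, those of 14 days lay below those of 2 days, and the remaining pairs of ages overlapped. Il17ra was 1.67-fold lower at 7 days than at 6 weeks (log2 -0.74, SE 0.16, adjusted p 0.00235) and 1.96-fold lower than at 2 days (log2 -0.97, SE 0.16, adjusted p 0.000438). The rise from 7 to 14 days, 1.40-fold (adjusted p 0.0258), lost its call without the first or the third 7-day library or the first 14-day library, with adjusted p from 0.0877 to 0.106. The lower level at 14 than at 2 days (-0.48, adjusted p 0.0465) lost its call under 14 of 23 alternatives, with adjusted p of up to 0.156.

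Counted over the 10 genes, the comparisons separated 7 days from the other ages. Against 6 weeks, 10 of 10 were called lower at 7 days, where 26.6% of all 15494 tested genes were called lower, 24.5% higher and 51.0% in either direction. The median log2 fold change of the 10 genes was -1.28, against -0.01 over all tested genes. Scaling by library totals alone moved that median of all genes to 0.16 and that of the receptors to -1.11, left 8 of 10 receptors called lower, and raised the share of higher calls among all calls from 47.9% to 59.3%. At 2 days 2 of 10, Csf3r and Il6st, were called lower and none higher against 6 weeks, where 19.7% of all genes were lower, 20.7% higher and 40.4% called either way, so the receptors' share was no larger than the background. That count rose to 5 without the second 2-day library, with Il6ra and Il13ra1 also lower and Il3ra higher (0.47, adjusted p 0.0103), while the count over all genes rose from 6263 to 8170. At 14 days 3 of 10, Csf2rb, Csf2rb2 and Il4ra, were called lower than at 6 weeks and none higher. Of the 10, 5 had no overlap between 14 days and 6 weeks, close to the 44.1% of all tested genes without overlap. Of all genes 9.26% were lower, 9.68% higher and 18.9% called either way at 14 days. This count was 5 with DESeq2, with the 2 ages fitted alone and without the first 2-day library, each time with Il3ra lower and Csf2ra higher added. It was 6 without the second 2-day library, with Csf3r lower as well, and 9 without both libraries that stood apart, while all genes called went from 2934 to 3741 with DESeq2, 3809 with the 2 ages alone, 4685 without the second 2-day library and 4869 without both. The lowest count was 2, without the first 6-week library.

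**Figure D2:**
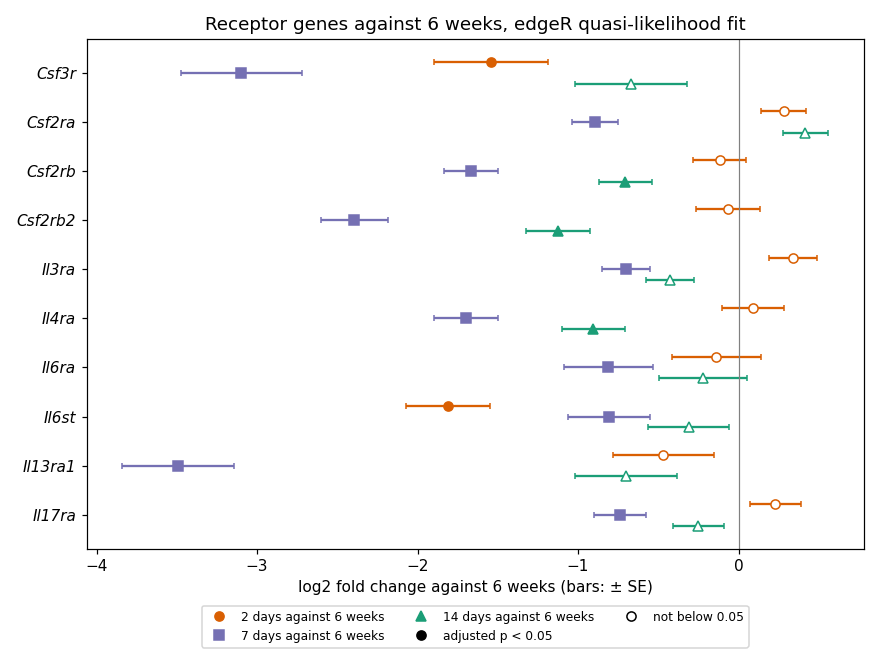
Log2 fold change of each receptor gene at 2, 7 and 14 days against 6 weeks, with bars for ± SE from the edgeR quasi-likelihood fit and filled symbols where the adjusted p was below 0.05. All 10 filled symbols of 7 days lie left of 0, the farthest at -3.49 for Il13ra1, while at 2 days 2 symbols are filled and at 14 days 3.

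The comparisons among the 3 young ages share libraries with those above and with each other, so their values are given side by side and not as further evidence. From 2 to 7 days 8 of 10 genes fell, Il6st rose and Il6ra was not called (-0.67, adjusted p 0.0603), where 25.8% of all genes fell, 22.9% rose and 48.7% were called. The receptors' median was -1.36 against -0.01 for all genes. From 7 to 14 days 7 of 10 rose and none fell, where 24.0% of all genes rose, 21.9% fell and 45.9% were called. The 3 genes not called in that step were Il3ra, Il6ra and Il6st, and the receptors' median was 0.88 against 0.02. Between 2 and 14 days 5 of 10 were lower at 14 days (Csf2rb, Csf2rb2, Il3ra, Il4ra and Il17ra) and Il6st was higher, a count that ran from 4 to 7 called genes with 1 library left out, where 12.3% of all genes were lower, 12.8% higher and 25.1% called. Il6st rose 2.83-fold between them (log2 1.5, SE 0.26, adjusted p 0.00127). In the joint test 9 of 10 were called, where 69.2% of all genes were. With all 7-day libraries left out of the fit, a setting chosen after the values were seen, 2 genes were called at 2 days and 3 at 14 days against 6 weeks, and 5 between 2 and 14 days. In the fit of all 12 libraries 40.4%, 18.9% and 25.1% of all genes were called in these comparisons.

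Per kilobase of exon, which allows levels of different genes to be compared, Csf3r was the most abundant of the 10 transcripts at every age, at 569 CPM per kilobase at 2 days, 193 at 7 days, 1040 at 14 days and 1655 at 6 weeks. Csf2ra was next at every age, at 192, 85.0, 211 and 158 CPM per kilobase. Il17ra (111, 56.5, 79.4 and 94.4) and Csf2rb (104, 35.6, 69.4 and 113) changed places between ages on this scale. Their libraries overlapped at 2 and 14 days, Il17ra was higher at 7 days and Csf2rb at 6 weeks, and the order also turns on whether the union of exons (7277 bases for Csf2rb) or the longest transcript (4900 bases) is taken. Il4ra was the fifth, at 77.1, 22.3, 38.7 and 72.4 CPM per kilobase. Il13ra1, Csf2rb2 and Il6ra formed a middle group whose order changed with age, and Il13ra1 went from 40.4 CPM per kilobase at 2 days to 4.97 at 7 days while Il6ra went from 23.5 to 14.7. Il3ra (3.12 to 6.40 across ages) and Il6st (0.892 to 3.13) were the least abundant at all 4 ages.

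**Figure D3:**
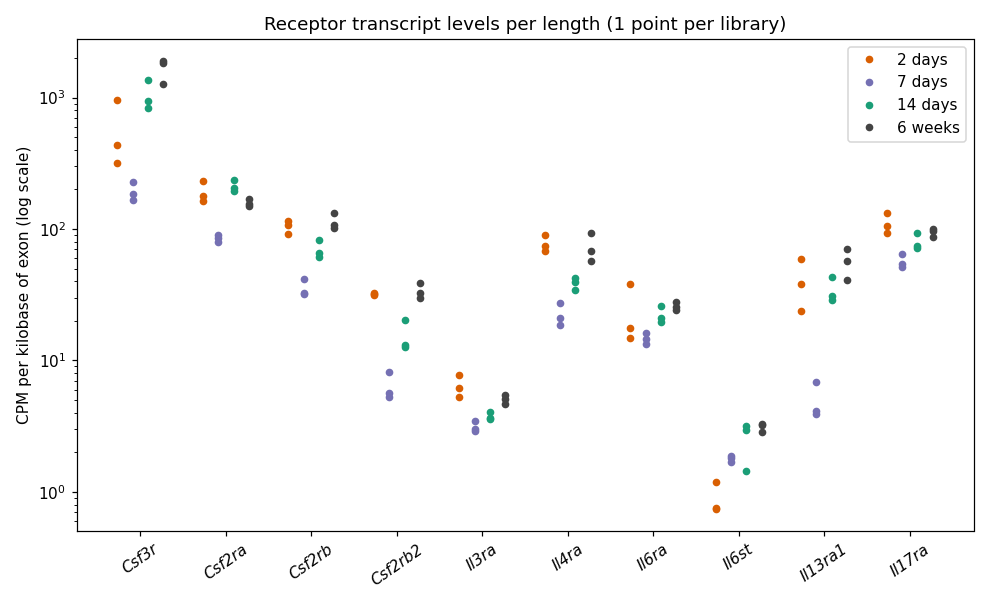
CPM per kilobase of exon for the 10 receptor genes on a log axis, with 1 point per library coloured by age. Csf3r lies highest at every age and Il6st lowest, and the 7-day points lie below those of the other ages for each gene except Il6ra, where they overlap with 2 days, and Il6st.

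Ratios between chains differed between ages, although that of Il6ra to Il6st was alike at 7 days and 6 weeks. The ratio of Csf2ra to Csf2rb in CPM per kilobase was 1.96, 2.03 and 1.55 in the 2-day libraries, 2.43, 2.15 and 2.66 at 7 days, 2.86, 3.19 and 3.14 at 14 days and 1.29, 1.48 and 1.45 at 6 weeks, so the alpha chain was highest relative to the beta chain at 14 days. The ratio of Csf2rb to its paralog Csf2rb2 was 5.66 ± 0.51 at 7 days (SD, n = 3) and 3.38 ± 0.24 at 6 weeks, without overlap. The ratio of Il4ra to Il13ra1 was 4.59 ± 0.51 at 7 days, 1.15 ± 0.20 at 14 days and 1.30 ± 0.10 at 6 weeks. It was 2.88, 1.24 and 2.34 in the 2-day libraries and 0.979 in the first 14-day library. The ratio of Il6ra to Il6st was 8.21 ± 0.67 at 7 days and 8.28 ± 0.84 at 6 weeks, and at 2 days it was 12.6, 51.0 and 23.5 in the 3 libraries. The 14-day value of that last ratio also rested on its first library, which had 17.98 against 6.16 and 7.14. Csf3r and Csf2ra belong to different receptors. The ratio of Csf3r to Csf2ra was 2.84 ± 1.17 at 2 days, 2.26 ± 0.25 at 7 days, 4.87 ± 0.79 at 14 days and 10.4 ± 1.78 at 6 weeks. These ratios depend on the exon lengths used and were not tested.

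**Figure D4:**
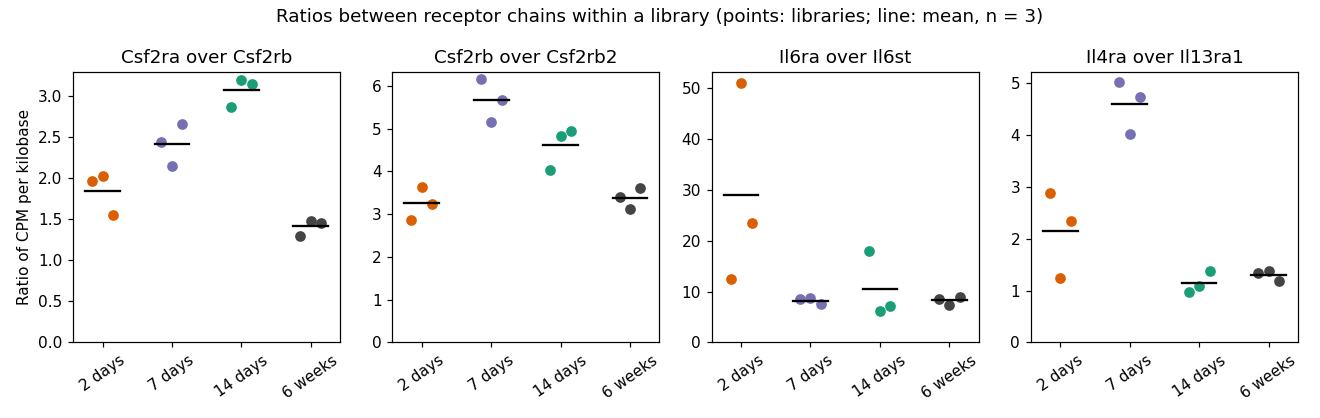
Ratio of CPM per kilobase between receptor chains within each library, with 1 point per library and a line at the mean of 3, on linear axes that start at 0. Csf2ra over Csf2rb is highest at 14 days, Csf2rb over Csf2rb2 and Il4ra over Il13ra1 are highest at 7 days, and Il6ra over Il6st is spread widely at 2 and 14 days by 1 library each.

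Transcripts of the receptors' ligands in the Ly6G+ cells were, apart from Osm, low, and those tested were mostly highest at 2 days. Of 13 ligand genes 6 passed the expression filter, and of these 5 were higher at 2 days than at 6 weeks and none lower. Over all tested genes 20.7% were higher and 19.7% lower in that comparison. Osm, which encodes oncostatin M, a gp130 cytokine, was the most abundant at 903 ± 160 CPM at 2 days, 386 ± 54 at 7 days, 636 ± 201 at 14 days and 209 ± 38 at 6 weeks (SD, n = 3). It was 4.33-fold higher at 2 days than at 6 weeks (log2 2.11, SE 0.23, adjusted p 1.92e-05) and 1.85-fold higher at 7 days (adjusted p 0.00540). Lif, another gp130 cytokine, went from 13.4 ± 1.2 CPM at 2 days to 1.04 at 7 days and 0.371 at 6 weeks (log2 5.16 at 2 days against 6 weeks, SE 0.36, adjusted p 6.28e-07). Il6 had 487 counts over the 3 libraries of 2 days, 83 at 7 days, 31 at 14 days and 7 at 6 weeks (log2 6.06 at 2 days against 6 weeks, adjusted p 6.20e-06). Il4 had 146, 28, 54 and 12 counts at the 4 ages in that order, and Il13 had 165, 16, 4 and 2. Both were called higher at 2 days than at 6 weeks, with adjusted p of 0.00412 for Il4 and 0.000190 for Il13. Il4, Il13 and Il6 are also products of mast cells and basophils, and the mast cell protease gene Cpa3 was at 481 to 824 CPM at 2 days, 11.8 to 15.7 at 7 days and at most 1.03 at 14 days and 6 weeks. Their part in the ligand levels was not tested. Csf3 had at most 19 counts at an age, Csf2 at most 17 and Il17a at most 25, too few to be tested, and Il3 had no counts in any library, which allows up to 3 counts per age.

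Of the partner and related receptor chains 22 of 26 were tested, with 7 higher and 8 lower at 2 days, 5 higher and 8 lower at 7 days, and 2 higher and 7 lower at 14 days, each against 6 weeks. Over all tested genes 20.7% were higher and 19.7% lower at 2 days, 24.5% and 26.6% at 7 days, and 9.68% and 9.26% at 14 days. Il2rg, the common gamma chain with which Il4ra also pairs, was lower at each young age than at 6 weeks, at 36.5 ± 7.2, 49.4 ± 2.1 and 56.6 ± 12.3 CPM against 89.9 ± 11.7. At 2 days that was a 2.46-fold difference (adjusted p 0.000123) and at 7 days a 1.82-fold difference (adjusted p 0.00149). It did not have its lowest level at 7 days, unlike Il4ra. Il5ra, the private chain of the interleukin 5 receptor, was at 0.479 CPM at 2 days and 1.97 at 14 days (log2 2.04, adjusted p 0.00461). It is itself an eosinophil marker. Of the 8 eosinophil markers 5 were higher and none lower at 14 than at 2 days, where 12.8% of all genes were higher. Their sums were 65.3 to 118 CPM at 2 days, 202 to 269 at 7 days, 189 to 234 at 14 days and 176 to 203 at 6 weeks. The markers did not move together, with 4 of the 8 higher and 2 lower at 7 days than at 6 weeks. Between those ages Epx went from 30.3 to 0.245 CPM and Prg2 from 105 to 1.88, while Ccr3 went from 15.2 to 93.1. Ccr3 and Ear2 (60.8 CPM) were the main contributors at 6 weeks. None of the 8 was at 0 at any age, and their part in the Il5ra level was not tested. Il17rc, the partner of Il17ra, had at most 23 counts at any age and was not tested. Csf1r, the macrophage colony-stimulating factor receptor, rose with age from 217 ± 103 CPM at 2 days to 353 ± 29, 468 ± 16 and 1176 ± 67 CPM, and it is itself a monocyte marker. Kit, the stem cell factor receptor and itself a mast cell and progenitor marker, was at 103 ± 34 CPM at 2 days and 24.9, 31.5 and 22.7 CPM at the later ages. It fell 4.14-fold from 2 to 7 days (log2 -2.05, SE 0.26, adjusted p 5.31e-05).

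Genes that act just below the receptors were mostly lower at 7 days too. Of 21 signalling genes 12 were lower and 1 higher at 7 days than at 6 weeks, beside the 26.6% and 24.5% of all genes, and their median log2 fold change was -0.65 against -0.01. At 2 days 6 were lower and 2 higher than at 6 weeks, and from 7 to 14 days 10 rose and 1 fell. Over all genes 19.7% were lower and 20.7% higher at 2 days than at 6 weeks, and 24.0% rose and 21.9% fell from 7 to 14 days. Jak2, the kinase bound by the beta common chain, was at 139 ± 32, 73.2 ± 7.1, 136 ± 14 and 118 ± 21 CPM at the 4 ages, 1.62-fold lower at 7 days than at 6 weeks (adjusted p 0.00518). Jak1 was 1.67-fold lower at 7 days than at 6 weeks (adjusted p 0.00506) and Jak3, the kinase of the common gamma chain, 2.76-fold lower (adjusted p 3.27e-06). Stat5b, a transcription factor downstream of the colony-stimulating factor receptors, was at 158 ± 14 CPM at 7 days against 305 ± 28 at 6 weeks (log2 -0.95, SE 0.17, adjusted p 0.000537). Stat5a was 1.91-fold lower (adjusted p 2.51e-05) and Stat6, which serves interleukin 4, 1.63-fold lower (adjusted p 0.0131). In the joint test of any age difference Stat6 was not called (adjusted p 0.0528). Stat3, which serves interleukin 6 and Csf3r, was at 402 ± 44 CPM at 7 days against 455 ± 37 at 6 weeks and was not called (adjusted p 0.277). Gab2, a docking adaptor, was at 44.7 CPM at 7 days and 143 CPM at 14 days (log2 1.68, adjusted p 1.92e-05). Traf3ip2, which encodes Act1, the adaptor of Il17ra, was at 4.70 to 5.44 CPM across ages and was not called in the joint test (adjusted p 0.850).

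Among 17 genes that restrain or shed these receptors 9 were lower and 2 higher at 7 days than at 6 weeks, with a median of -0.38, and 7 rose and none fell from 7 to 14 days. Over all genes 26.6% were lower and 24.5% higher at 7 days than at 6 weeks, and 24.0% rose and 21.9% fell from 7 to 14 days. Socs3, an inhibitor induced by and acting on gp130 and Csf3r, was at 368 ± 47, 50.9 ± 6.7, 349 ± 61 and 614 ± 188 CPM at the 4 ages. It was 12.1-fold lower at 7 days than at 6 weeks (log2 -3.59, SE 0.23, adjusted p 5.38e-07) and rose 6.86-fold from 7 to 14 days (adjusted p 4.12e-06). Cish, an inhibitor induced through Stat5, differed from it. It was at 23.9 ± 2.3, 19.1 ± 3.0, 14.8 ± 1.1 and 8.99 ± 1.79 CPM, and at 7 days it was 2.13-fold higher than at 6 weeks (log2 1.09, SE 0.16, adjusted p 0.000170). Pias3, an inhibitor of Stat3, was at 27.7 ± 2.6 CPM at 7 days and between 58.7 and 59.6 CPM at the other ages, 2.14-fold lower at 7 days than at 6 weeks (adjusted p 5.24e-06). Of the proteases that shed Il6ra, neither Adam10 (adjusted p 0.400) nor Adam17 (adjusted p 0.0612) was called in the joint test. Adam17 was at 72.5 to 74.8 CPM at the 3 young ages against 89.1 CPM at 6 weeks, with only the 2-day difference called (-0.30, adjusted p 0.0420).

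**Figure D5:**
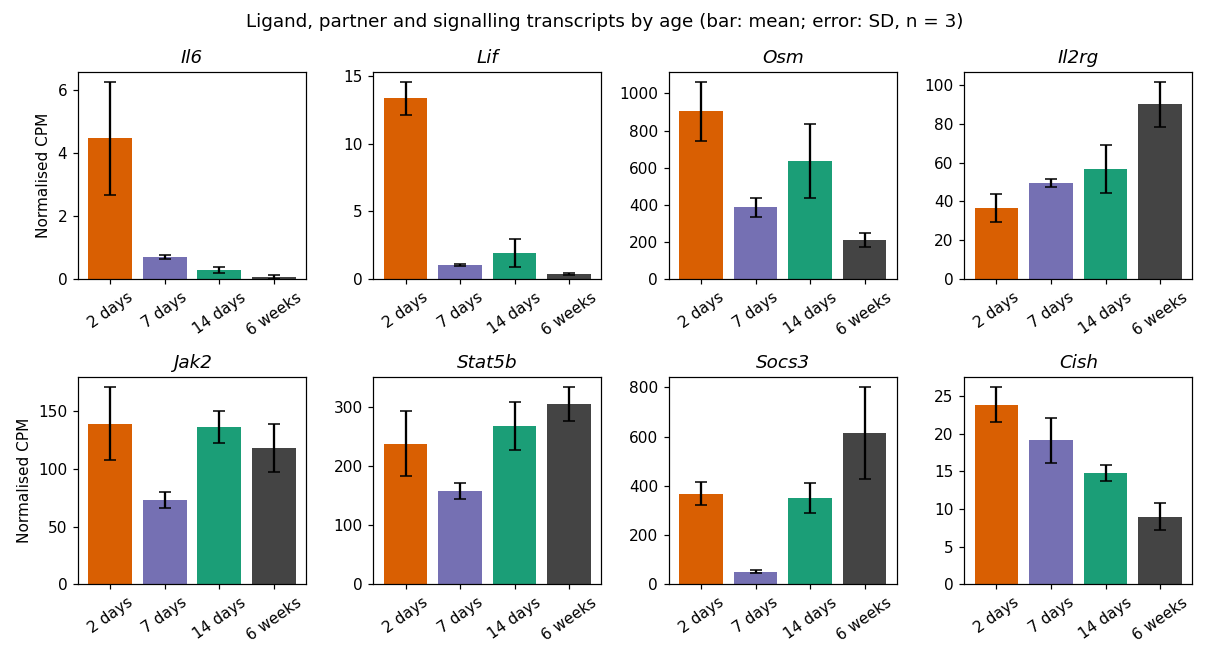
Mean normalised CPM of 8 ligand, partner and signalling genes at each age, with error bars for the SD of 3 libraries and bars that start at 0. Il6, Lif, Osm and Cish are highest at 2 days, Il2rg is highest at 6 weeks, and Jak2, Stat5b and Socs3 are lowest at 7 days.

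Of 22 genes known as targets of these receptors 21 were in the table, and 11 were lower and 4 higher at 7 days than at 6 weeks, with a median of -0.88. From 2 to 7 days 12 fell and 6 rose, and from 7 to 14 days 10 rose and 5 fell. Over all genes 26.6% were lower and 24.5% higher at 7 days than at 6 weeks. From 2 to 7 days 25.8% of all genes fell and 22.9% rose, and from 7 to 14 days 24.0% rose and 21.9% fell. Pim1, a survival kinase induced through Stat5 and Stat3, was at 407 ± 23, 132 ± 8, 819 ± 531 and 435 ± 212 CPM, 3.30-fold lower at 7 days than at 6 weeks (log2 -1.72, SE 0.40, adjusted p 0.00348). Junb, an AP-1 subunit, was at 3057 ± 415, 639 ± 33, 3318 ± 462 and 2657 ± 454 CPM, 4.16-fold lower at 7 days than at 6 weeks (adjusted p 3.35e-06). The immediate early genes Fos and Egr1 were lowest at 7 days as well, while Fosb and Jun were lowest at 6 weeks and Atf3 at 2 days. Among the 3 young ages the means of Fosb and Jun were also lowest at 7 days. The part of these genes in the Socs3 and Junb levels was not tested. Chil3, a chitinase-like protein induced by interleukin 4 in macrophages, did not share this low point. It was at 1368 ± 97, 3425 ± 135, 5477 ± 584 and 3087 ± 624 CPM, and it rose 2.50-fold from 2 to 7 days (adjusted p 6.15e-05). A link of Chil3 to Il4ra in these Ly6G+ cells was not tested.

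The 10 genes were also compared with other genes by the root mean square difference of log2 CPM over the 12 libraries after each gene was centred on its mean, among 5851 protein-coding genes with a mean of at least 20 CPM. The nearest to Csf3r were H2-Q10 (0.19) and Rnf149 (0.24), where the root mean square of Csf3r itself was 1.23. The nearest to Csf2ra was Ptk2b (0.10), and the nearest to Csf2rb were Furin (0.10) and AB124611 (0.15), and to Csf2rb2 Foxd4 (0.22) and S100a6 (0.28). Those of Il3ra were Gucd1 (0.17) and Twf1 (0.18), of Il4ra Hist2h2aa2 (0.20) and Grina (0.21), and of Il6ra Snx10 (0.10) and Ypel3 (0.11). Il13ra1 was nearest to Pla2g7 (0.20) and Il1rap (0.26), and Il17ra to Unc119 (0.08) and Klc4 (0.09). For Il6st they were H2-Ob (0.14) and H2-DMb2 (0.17), genes of MHC class II antigen loading that B cells express. Within the 10, the closest pair was Csf2rb with Il4ra (0.19), followed by Il3ra with Il17ra (0.28) and Il6ra with Il17ra (0.28), while the paralogs Csf2rb and Csf2rb2 differed by 0.34. These distances describe the same 12 libraries, in which depth and age are shared by all genes.

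RefSeq promoters (GRCm38.p6) were found for 8 of the 10 genes, all but Csf2rb and Il17ra. A window of 250 bases of each was searched on both strands for 3 motifs that myeloid and cytokine-driven factors are known to bind. For Csf3r, Csf2ra, Il3ra and Il4ra the window ran past the gene start given above into the gene. The PU.1 match of Csf3r did not lie wholly before that start. The PU.1 motif was searched as GAGGAA, the C/EBP motif as TTNNGNAA and the STAT motif as TTCNNNGAA, and they occurred in 23.3%, 36.8% and 7.02% of 32851 promoters. PU.1 matches were found for Csf3r (1), Csf2ra (2), Csf2rb2 (1) and Il6ra (1), and C/EBP matches for Csf2ra (1), Il3ra (1) and Il6ra (2). Csf2rb2 was the only 1 of the 8 with a STAT match, beside the 7.02% of all promoters. Il4ra, Il13ra1 and Il6st had no match to any of the 3 motifs. Of these Il4ra and Il13ra1 fell from 2 to 7 days, 3.46-fold and 8.13-fold, and Il6st rose. The promoters of Csf2rb2 and Csf2ra are shown because both chains serve receptors whose transcripts fell and rose again around 7 days. The Csf2rb2 stretch is chr15:78305722-78305971 and the Csf2ra stretch chr19:61228430-61228668, both on the minus strand, and capitals mark the PU.1 and STAT matches of the former and the C/EBP match of the latter.
Csf2rb2: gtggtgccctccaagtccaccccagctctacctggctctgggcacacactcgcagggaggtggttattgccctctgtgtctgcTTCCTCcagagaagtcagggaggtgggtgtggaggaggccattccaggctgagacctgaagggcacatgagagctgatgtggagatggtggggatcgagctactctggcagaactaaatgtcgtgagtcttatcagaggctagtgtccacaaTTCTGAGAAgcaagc
Csf2ra: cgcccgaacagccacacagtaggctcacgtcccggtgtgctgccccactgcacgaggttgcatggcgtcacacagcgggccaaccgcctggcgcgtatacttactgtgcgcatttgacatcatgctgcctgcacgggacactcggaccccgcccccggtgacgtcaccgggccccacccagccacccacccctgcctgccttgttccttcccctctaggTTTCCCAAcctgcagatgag
The PU.1 matches of Csf2ra do not lie wholly within the stretch printed. A match is a run of letters in a window and was not tested as a binding site.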

How the data were processed

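Per the labels' protocols, total RNA was extracted with Trizol and cDNA was made with random hexamers, and whether strand was kept is not stated. The authors deposited gene counts as whole numbers, 12 libraries in 1 table. The build mm10, RSEM 1.2.3 and DESeq2 appear in the list per the submitters' processing notes, with no role given, so the deposited counts may be rounded estimates that divide reads among similar genes such as Csf2rb and Csf2rb2. Symbols and positions came from GENCODE M21 (GRCm38) for 37570 of 38887 identifiers.

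Libraries were grouped by labelled age. Genes passed filterByExpr (minimum count 10), counts were scaled by trimmed mean of M-values factors, and 1 model over the 12 libraries with age as its term was fitted in edgeR 4.0.16 (R 4.3.3), with quasi-likelihood tests and Benjamini-Hochberg adjustment at 0.05. SE is the absolute log2 fold change over the square root of F. With at least 34495767 counts per library, counting error is small except for genes of few counts. Alternatives covered library totals, DESeq2 1.42.0 and its size factors, limma-voom (limma 3.58.1), other filters, a replicate block, pairs of ages alone, summed paralogs and left-out libraries, and leaving out all 7-day libraries was added after the values were seen. The procedure was run on simulated counts of 2 days against 6 weeks, with 14366 of 14566 genes unchanged. Of the 50 genes at each true log2 change, 70% were called at 1, 62% at -1, 100% at 2 and 96% at -2. Of the calls 3.53% were unchanged genes. Far more genes were called in the real libraries, so scaling under such wide change was not tested. The receptors and the lists were chosen with earlier results of these data known. Named beyond the receptors were genes directly in their pathways, the pair with the smallest joint p of each list, and the 2 nearest genes by pattern, without predicted genes. A gene that this rule named is not reported here.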

Additional observations from a re-analysis of the deposited data

How the results depend on the processing

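Of 60 comparisons of a receptor gene between ages, 35 kept their direction and their side of the threshold under every alternative run, and of 1338 alternative values 31 lost and 38 gained a call and 11 changed sign. Receptor genes called at 2 days against 6 weeks were 2, and 2 to 5 with 1 library left out, with 5 also without both the second 2-day and the first 14-day library. At 14 days against 6 weeks they were 3, and 2 to 6 with 1 library left out, 5 with DESeq2, 5 with those ages alone and 9 without both libraries. Of all genes, 2934 were called at 14 days against 6 weeks, 1677 to 4685 with 1 library left out (1677 without the third and 1709 without the first 6-week library, 4685 without the second 2-day library) and 4869 without both. Between 14 and 2 days it was 3882, 2678 to 5833 with 1 library left out (5833 without the second 2-day library), 1952 with those ages alone and 6249 without both. The cause was not tested. Sign changes fell on differences that were near 0 and not called with all libraries. Il6ra between 14 and 2 days was -0.08, 0.0272 with library totals, 0.025 with limma-voom, 0.34 without both libraries (adjusted p 0.0408) and -0.29 to 0.46 with 1 library left out (0.46 without the second 2-day library, adjusted p 0.0189). Against 6 weeks at 2 days, with 1 library left out, Csf2rb2 ran from -0.15 to 0.0444, Il4ra from -0.0583 to 0.31 and Il6ra from -0.67 to 0.0709, and Il13ra1 between 14 and 2 days from -0.47 to 0.16. Csf2rb between 14 and 2 days lost its call with those ages alone (-0.59, adjusted p 0.0708) and without the third 2-day or the second or the third 14-day library.

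Of 18 same-numbered pairs of libraries 3 had deviations from the mean of their age correlated over 0.1 (r -0.36 to 0.33). Pairs with different numbers ran from -0.34 to 0.30. With 3 libraries per age these correlations cannot exclude a pairing or a shared batch. With the replicate number as a block the receptor counts were the same except between 14 and 2 days, 5 against 6, where Il17ra was not called (-0.48, adjusted p 0.0820). Depth limited the ligands Csf3, Csf2, Il3 and Il17a, which were not tested.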
